A study of Rattus norvegicus with 14 samples.

Results

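The CLC and CLIC chloride channel genes Clcn2, Clcn3, Clcn4, Clcn5, Clcn6, Clcn7 and Clic4 were followed in RNA of hippocampal area CA3 from 14 rats. They are 7 of the 10411 genes that the array's annotation names at a probe set of their own, and every probe set naming one of them alone was taken, 11 in all of 12783 such probe sets. A probe set is a group of short oligonucleotides that together measure a stretch of 1 transcript. The rats were young male Long-Evans animals, 3 to 4 months old, all trained first in a standard water maze and, 2 to 3 weeks later, given 8 trials 8 min apart in an unfamiliar maze. The 7 learning rats swam there with orienting cues and a visible platform kept at 1 location, and the 7 control rats with a visible platform whose location changed and without informative cues. A probe trial of 90 s followed 1 h later for all, and the tissue was dissected directly after it, so effects of cues, platform movement and learning cannot be told apart. Each animal gave 1 Affymetrix RAE230A array. The CA3 markers Grik4 and Bok had mean log2 levels of 7.95 and 8.84 in control rats, well above the cutoff of 3.88 below which a probe set was called dim here, and differed by -0.02 and 0.01 between the groups. The CA1 markers Mpped1 and Wfs1 (8.84 and 8.77) and the dentate markers Calb1 and Prox1 (8.32 and 5.35) also lay above the cutoff in control rats. These levels therefore do not show how much of the tissue was CA3.

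CLC proteins are membrane proteins that work as pairs, and the family has a pair of branches. Clcn2 belongs to the branch of plasma membrane chloride channels, while Clcn3 to Clcn7 encode exchangers that trade chloride for protons in the membranes of endosomes, lysosomes and vesicles, where they help set luminal acidity and chloride. CLIC proteins are unrelated in sequence, have the fold of glutathione transferases, and exist in soluble and membrane forms. In brain, loss of Clcn3 in mice leads to degeneration of the hippocampus, and loss of Clcn2 to vacuoles in white matter.

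Of the 7 genes, Clcn4 was higher in every learning rat than in any control rat, and the Clic4 signal was lower at 1 of its 3 probe sets. The other genes showed no difference that passed the test. Values are log2 levels, differences are learning minus control, and a call needs an adjusted p under 0.05 in a limma fit over all 9520 probe sets that were not dim. Of the 11 probe sets 10 entered that fit, for 6 genes, and Clcn5 was measured only by a dim one. Of those 10, 1 was called higher, where 2.55% of all tested probe sets were, and 1 was called lower, where 0.798% were. The family was chosen by function with its learning minus control differences already in view, so these counts and the adjusted p-values of its members are a description and support nothing about the family.

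**Figure D1:**
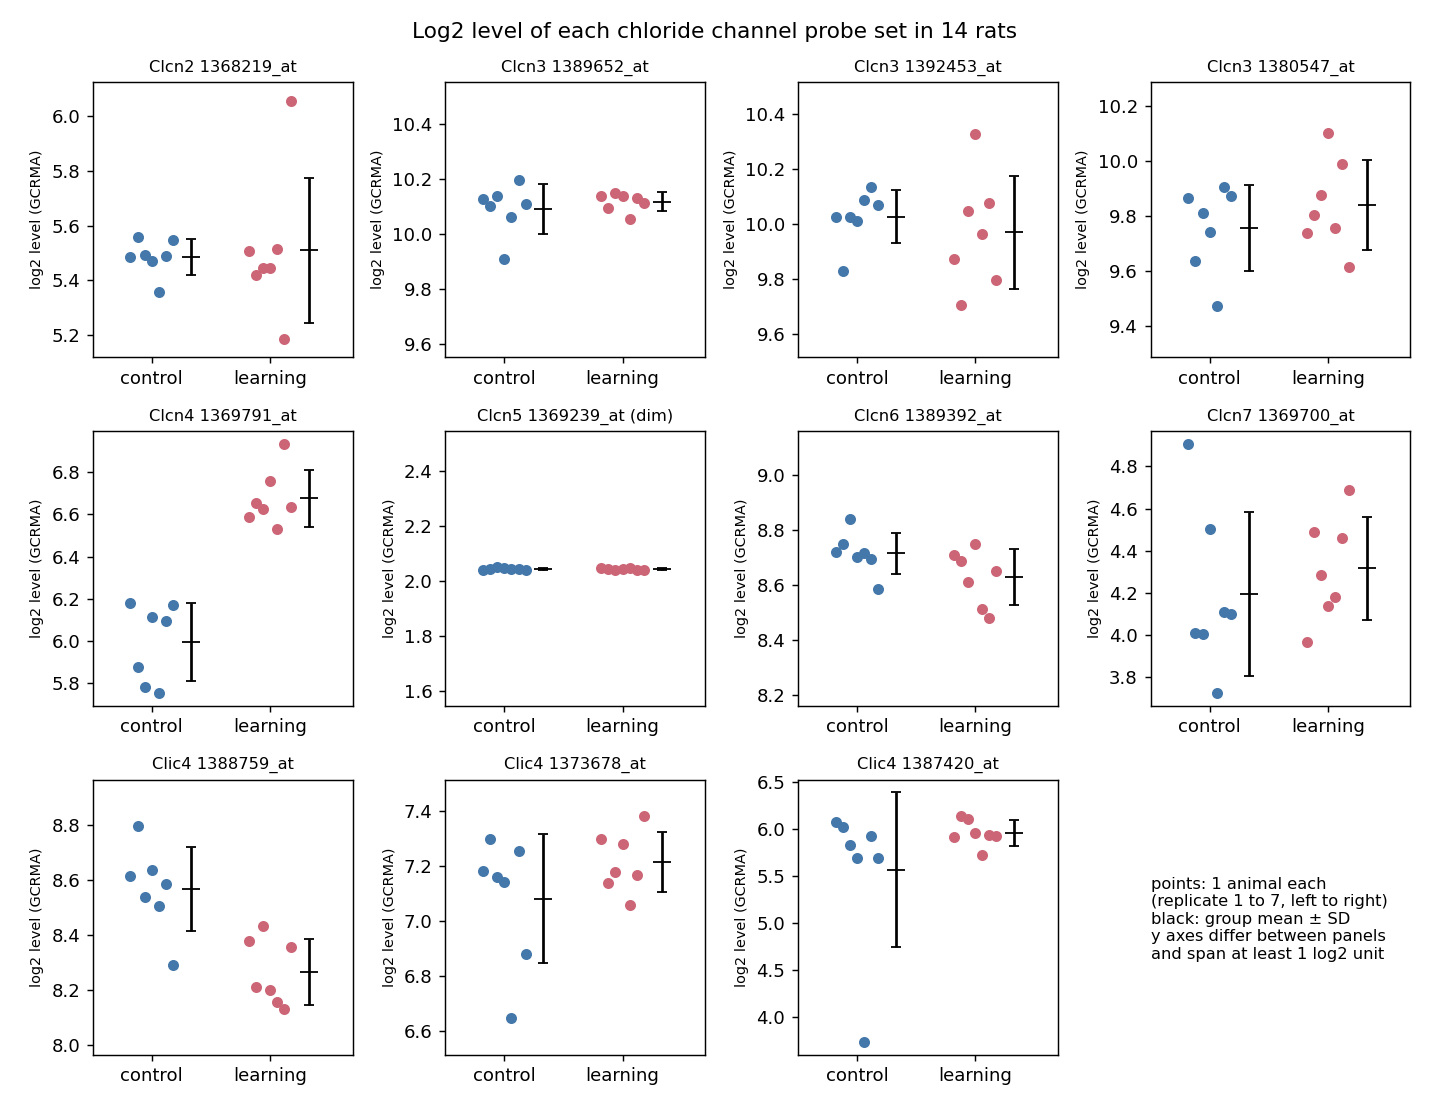
Log2 level of each of the 11 probe sets in the 7 control (blue) and 7 learning rats (red), 1 point per animal, with group mean and SD in black and a separate y axis in each panel. The groups are apart for Clcn4, where control rats lie between 5.75 and 6.18 and learning rats between 6.53 and 6.94, and they overlap in all other panels.

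Clcn4 encodes an endosomal chloride/proton exchanger that pairs with the Clcn3 protein and whose human counterpart is an X-linked gene of intellectual disability. Its single probe set, 1369791_at, lay at 5.75, 6.10 and 6.18 in control rats (lowest, median and highest) and at 6.53, 6.63 and 6.94 in learning rats. The groups did not overlap, as was the case in the same direction at 1.73% of all tested probe sets. Control rats 2, 3 and 5 were the low ones, between 5.75 and 5.88, and the other 4 lay between 6.10 and 6.18. The mean was 5.995 ± 0.186 in control and 6.676 ± 0.133 in learning rats (SD, n = 7 each). Clcn4 rose by 0.68 (SE 0.08, 95% interval 0.51 to 0.85), a 1.60-fold difference, with a limma adjusted p of 0.00231. Leaving out 1 array at a time gave 0.64 to 0.71, and the call held in each of these 14 fits, with adjusted p-values up to 0.00785.

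Clcn4's call was lost in 2 fits with a covariate, among 32 alternatives with adjusted p-values from 0.000695 to 0.289. One covariate was the balance between the dimmest and brightest tested probe sets of other genes, into which no probe set below the dim cutoff enters. With it the difference was 0.43 (adjusted p = 0.289), and with the level of choroid plexus markers it was 0.54 (adjusted p = 0.126). Both covariates themselves differed between the groups. The balance, over genes whose probe sets lie at least 2 log2 units apart, ran from -3.65 to -3.34 in control and from -3.30 to -3.20 in learning arrays (two-sided exact permutation p = 5.83e-04, the smallest that 7 against 7 arrays give, adjusted p = 0.00437 over 15 such measures). The neuronal marker mean also separated the groups, at 10.8 to 11.1 in control and 11.2 to 11.5 in learning rats (exact permutation p = 5.83e-04, adjusted p = 0.00437). Of its 4 measured genes 2 were called higher at their brightest probe set, Camk2a (0.76) and Nefl (0.24). At its other probe sets Camk2a had 0.04 (adjusted p = 0.953) and 0.54 (adjusted p = 0.0381). The second probe set of Nefl had 0.18 (adjusted p = 0.0395) and that of Rbfox3 0.07 (adjusted p = 0.493). Snap25, the brightest (0.12, adjusted p = 0.0820), and Rbfox3 (0.20, adjusted p = 0.0814) did not pass, and none of the 4 was dim. The astrocyte marker mean, over 8 genes at their brightest probe sets, differed by -0.02 (exact permutation p = 0.641, adjusted p = 0.740). At dimmer probe sets 3 of those 8 genes were called higher, Aqp4 (1.10), Gja1 (0.74) and Slc1a3 (0.41). The rise was thus not limited to neuronal markers. In bulk tissue, more cells of a type and more RNA per cell cannot be told apart. The neuronal marker mean was not used as a covariate, and its part in the Clcn4 difference was not tested. That of the balance was not tested apart from the fit with it as covariate.

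The stretch before the Clcn4 start is shown because this gene had the largest difference of the family. It holds the letters CACGTG, capitals in the sequence, which are the core of the E-box that the lysosomal regulator TFEB and related factors recognise. The 250 bases upstream of the annotated start are from RefSeq, GRCr8 build, chrX:27290689-27290938, plus strand.
Clcn4: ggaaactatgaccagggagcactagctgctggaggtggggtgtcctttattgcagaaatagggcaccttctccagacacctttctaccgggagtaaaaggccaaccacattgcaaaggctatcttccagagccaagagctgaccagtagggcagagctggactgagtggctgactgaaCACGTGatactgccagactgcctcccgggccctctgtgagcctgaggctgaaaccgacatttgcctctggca

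CACGTG, which reads the same on both strands, was found in such a window for 3 of the 7 genes, which have 9 windows together. It occurs in 5.59% of 33469 promoter windows of the same length, a share of windows and not of genes. The other genes with it are Clcn6, with 2 copies, and Clcn7, both tied to late endosomes and lysosomes. Their sites are shown in 30 bases each to set them beside that of Clcn4, with the motif in capitals. The windows lie at chr5:163748245-163748274 and chr5:163748222-163748251 (minus strand) for Clcn6 and at chr10:14656215-14656244 (plus strand) for Clcn7, in GRCr8.
Clcn6 first site: gctcgagagggcCACGTGaccctcccgggg
Clcn6 second site: cccggggccagtCACGTGaggcgcagatcc
Clcn7 site: tccgtcctgggtCACGTGggcaccgatggt
Neither Clcn6 nor Clcn7 passed the test between the groups, so the motif was present in genes with and without a call. A match of letters is a description of the window and shows no binding.

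Clcn3 encodes the endosomal and vesicular exchanger closest to Clcn4, and was measured by 3 probe sets, none of which was called. At 1389652_at control rats lay at 9.91, 10.11 and 10.20 (lowest, median and highest) and learning rats at 10.05, 10.13 and 10.15. The difference was 0.03 (95% interval -0.06 to 0.11, adjusted p = 0.771). At 1392453_at the values were 9.83, 10.02 and 10.13 in control and 9.70, 9.96 and 10.33 in learning rats, a difference of -0.06 (95% interval -0.23 to 0.12, adjusted p = 0.749). At 1380547_at they were 9.47, 9.81 and 9.91 against 9.61, 9.80 and 10.10, a difference of 0.08 (95% interval -0.09 to 0.25, adjusted p = 0.616). The groups overlapped at each of the 3. The upper interval bounds, 0.11 to 0.25, lie below the lower bound of Clcn4, 0.51. The Clcn4 probe set was dimmer, with a mean level of 6.34 against 9.80 to 10.10 for Clcn3. With the balance between dimmest and brightest probe sets as covariate Clcn4 had 0.43. No test between the genes was run.

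Upstream of 1 of the 2 annotated Clcn3 starts stands the full cyclic AMP response element TGACGTCA, shown since this is the element through which the activity-dependent factor CREB acts. The element, which also reads the same on both strands, occurs in 1.59% of the promoter windows and in no other window of the 7 genes. Its 30 bases are chr16:34137930-34137959, plus strand, GRCr8.
Clcn3 site: cgtcaacgcggTGACGTCAcgcgcgtgcga

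Clcn2, Clcn6 and Clcn7 did not pass the test either, and their intervals differ in width. Clcn6, the exchanger of late endosomes in neurons, lay at 8.59, 8.72 and 8.84 in control and at 8.48, 8.65 and 8.75 in learning rats. Its difference of -0.09 had the narrowest interval of these 3 genes, -0.19 to 0.02 (adjusted p = 0.345). Clcn2, the inwardly rectifying channel of neurons and glia, lay at 5.36, 5.49 and 5.56 in control and at 5.19, 5.45 and 6.06 in learning rats. The learning group thus held both its lowest and its highest value. The difference was 0.02 (95% interval -0.18 to 0.23, adjusted p = 0.917), and without learning rat 7, the highest, it was -0.07. Clcn7, the lysosomal exchanger that works with the subunit Ostm1, lay close to the dim cutoff, at 3.72, 4.10 and 4.91 in control and 3.97, 4.28 and 4.69 in learning rats. Its difference of 0.12 had the interval -0.21 to 0.46 (adjusted p = 0.718), the widest of these 3. It was 0.24 without control rat 1, the highest, and 0.04 without control rat 5, the lowest. Clcn5, the endosomal exchanger best known from the kidney, lay between 2.04 and 2.05 in all 14 rats, far below the dim cutoff. That flat signal gives no comparison.

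**Figure D2:**
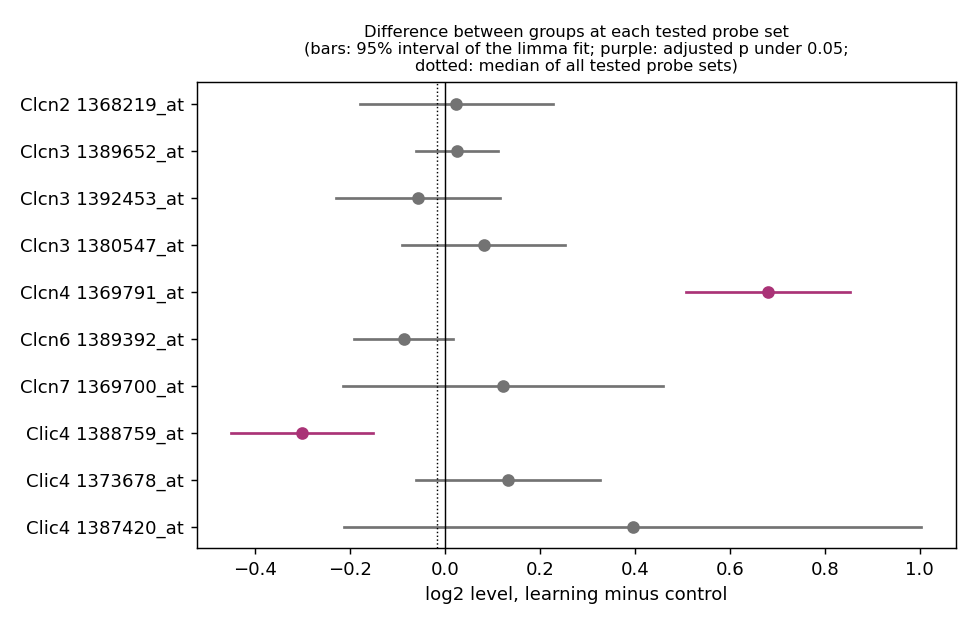
Log2 level in learning minus control rats at the 10 tested probe sets, with the 95% interval of the limma fit; purple marks an adjusted p under 0.05 and the dotted line the median of all tested probe sets, -0.02. Clcn4 at 0.68 and the first Clic4 probe set at -0.30 have intervals that leave out 0, and the other 8 include it.

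Clic4, a CLIC protein known from the formation of vessels by endothelial cells and found in many cell types, gave different answers at its 3 probe sets. At 1388759_at, its brightest, control rats lay at 8.29, 8.59 and 8.80 (lowest, median and highest) and learning rats at 8.13, 8.21 and 8.44. All but 1 of the control rats, replicate 7, lay above every learning rat. The mean was 8.57 ± 0.15 in control and 8.27 ± 0.12 in learning rats (SD, n = 7 each), and the signal fell by 0.30 (SE 0.07, 95% interval -0.45 to -0.15, limma adjusted p = 0.0333), 1.23-fold lower. This probe set was called in 6 of 14 fits that left out 1 array. It was not called without control replicate 1 (adjusted p = 0.0660), 2 (0.0603), 3 (0.0571) or 4 (0.0596), or without learning replicate 2 (0.0532), 4 (0.0703), 5 (0.0597) or 6 (0.0683), while the difference stayed between -0.35 and -0.26. The call was also lost without the dim filter (adjusted p = 0.0713) and with the Gapdh ratio between 3' and 5' probe sets, a measure of RNA integrity, as covariate (-0.27, adjusted p = 0.172), and over its 33 alternatives the adjusted p ran from 0.00898 to 0.796.

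The other Clic4 probe sets had differences above 0 that did not pass. At 1373678_at control rats lay at 6.65, 7.16 and 7.30 and learning rats at 7.06, 7.18 and 7.38, a difference of 0.13 (95% interval -0.06 to 0.33, adjusted p = 0.441). At 1387420_at they lay at 3.73, 5.84 and 6.08 against 5.73, 5.94 and 6.15, a difference of 0.40 (95% interval -0.21 to 1.003, adjusted p = 0.468). Control rat 5 was lowest at both, and without it these differences were 0.06 and 0.09. Averaged over its 3 probe sets, Clic4 had a difference of 0.08 (adjusted p = 0.796), so the 3 probe sets give the gene no common direction. With the balance between dimmest and brightest tested probe sets as covariate, which separated the groups, all 3 were below 0. They were -0.29 for 1388759_at, -0.11 for 1373678_at and -0.69 for 1387420_at (adjusted p = 0.475, 0.818 and 0.445).

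Within each rat, the Clic4 signal at 1388759_at minus that at 1373678_at was 1.33 to 1.86 in control and 0.92 to 1.26 in learning rats. Against 1387420_at it was 2.54 to 4.78 in control and 2.06 to 2.46 in learning rats. Neither difference overlapped between the groups, as was the case for 5.19% of the 1386 pairs of tested probe sets that share a gene. The remaining Clic4 pair overlapped, and so did the 3 pairs of Clcn3. Such a difference shows that the signals of the probe sets changed unequally; it does not compare amounts of transcript. The 3 Clic4 probe sets had mean levels of 8.42, 7.15 and 5.77. Any pair sets a brighter against a dimmer probe set, so that fact alone cannot tell the pairs apart. The dimmer minus brighter balance over 349 genes outside the family was higher in learning arrays, at -3.25 ± 0.03 against -3.42 ± 0.11 (SD, n = 7 each). That balance took only genes whose tested probe sets lie at least 2 log2 units apart. Its part in the Clic4 contrasts was not tested apart from the fit with it as covariate. Which stretch of the transcript each Clic4 probe set covers was not examined here.

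**Figure D3:**
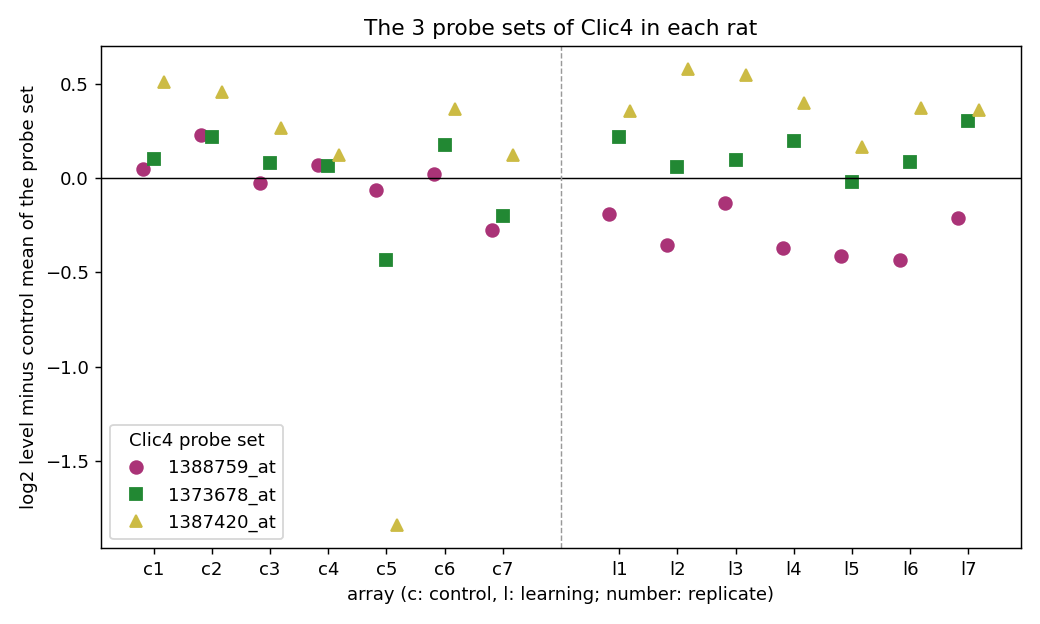
Log2 level of the 3 Clic4 probe sets in each rat, each minus its own control mean, with control arrays on the left and learning arrays on the right. In all 7 learning rats the purple points of 1388759_at lie below 0, at a mean of -0.30, while control rat 5 stands far below the others at 1387420_at with a log2 level of 3.73.

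The endothelial marker mean, over 5 of 9 listed genes, was lower in learning rats. It was 5.68 to 6.04 in control and 5.36 to 5.79 in learning rats (exact permutation p = 0.00874, adjusted p = 0.0262). Of those 5, Adgrl4 was called lower (-0.60), and Kdr (-0.40, adjusted p = 0.0989), Vwf (-0.20), Cldn5 (-0.05) and Esam (0.04) did not pass. Adgrl4, Kdr and Vwf had control means of 4.89, 4.85 and 4.66, nearer the dim cutoff than Cldn5 (8.73) and Esam (6.32). Pecam1 and Flt1, also listed, were dim and not in the mean. With that mean as covariate the Clic4 difference at 1388759_at was -0.19 (adjusted p = 0.368). In the same fit it was 0.25 at 1373678_at (adjusted p = 0.378) and 0.90 at 1387420_at (adjusted p = 0.276). Without a covariate these 2 were 0.13 and 0.40. The part of the endothelial marker mean in the Clic4 differences was not tested apart from this fit. The Clcn4 difference was 0.61 there and was still called. Choroid plexus markers were represented by Ttr (-2.09) and Igfbp2 (-0.70) alone, the other 4 being dim. Their mean ran from 6.50 to 8.71 in control and from 5.33 to 6.55 in learning rats (exact permutation p = 0.00175, adjusted p = 0.00874).

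The Clic4 upstream stretch is shown beside that of Clcn4 because these are the genes with a call. Capitals mark GGGCGG or its reverse complement CCGCCC, the GC box that Sp1 binds, found 3 times here. It occurs in 30.5% of the promoter windows and in a window of 4 of the 7 genes, which have 9 windows together. Neither CACGTG nor TGACGTCA is among the letters. The window is chr5:152797119-152797368, minus strand, GRCr8, from RefSeq.
Clic4: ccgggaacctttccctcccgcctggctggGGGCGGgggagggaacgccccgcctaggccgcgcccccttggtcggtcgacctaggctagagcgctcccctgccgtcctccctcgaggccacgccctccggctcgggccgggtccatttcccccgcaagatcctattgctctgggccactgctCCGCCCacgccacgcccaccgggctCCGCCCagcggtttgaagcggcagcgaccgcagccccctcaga

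**Figure D4:**
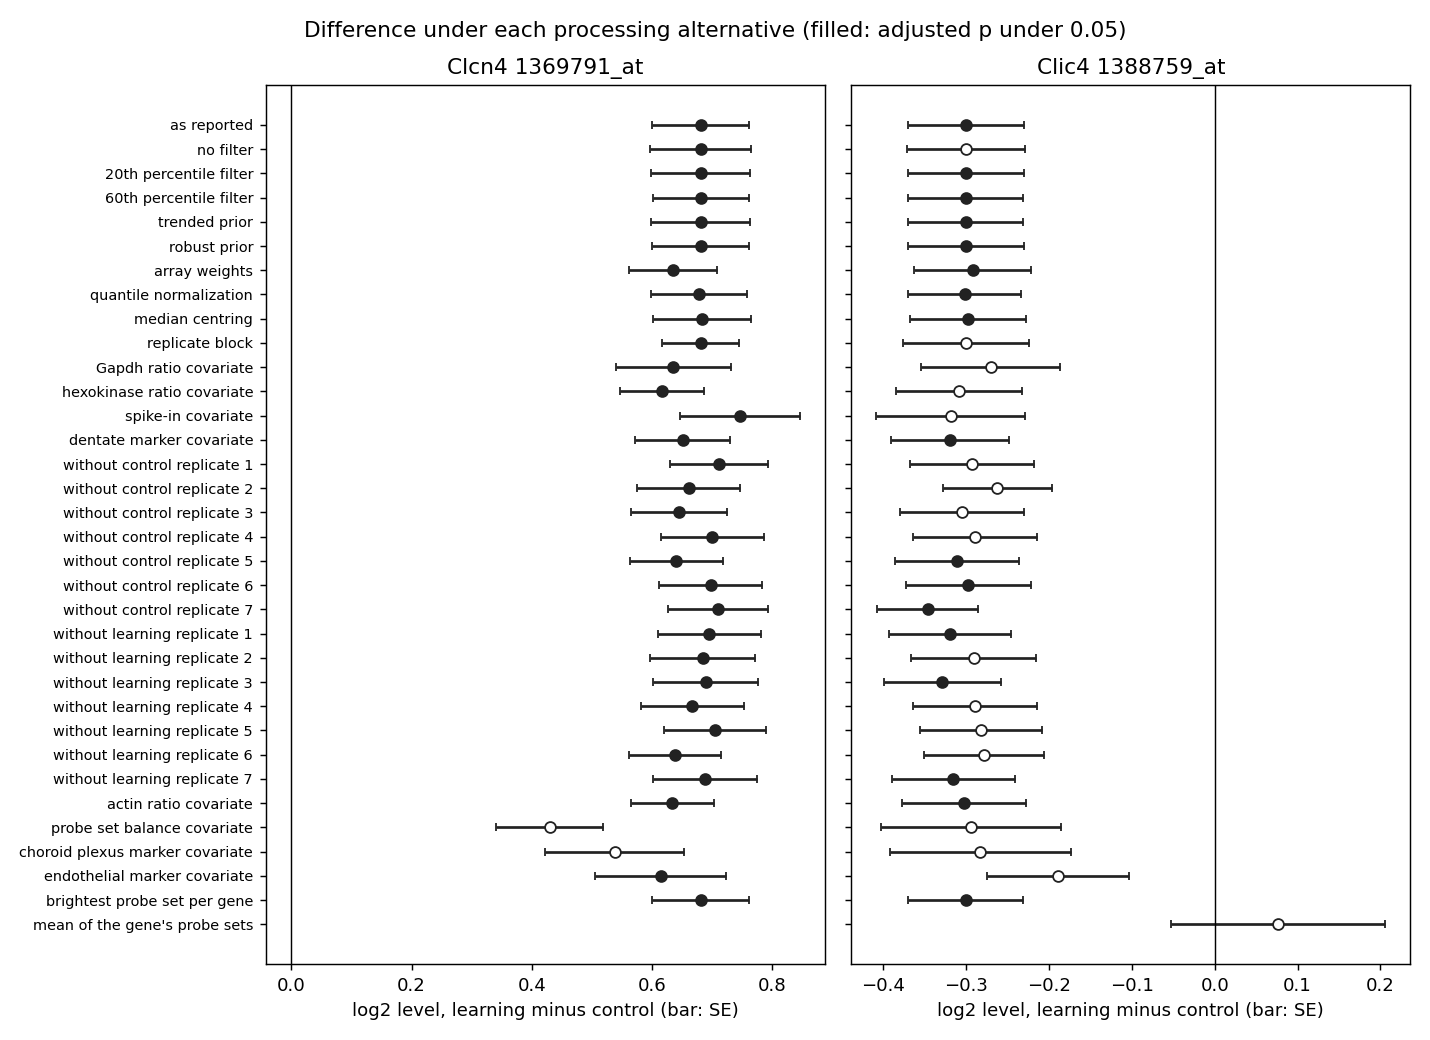
Difference at the called probe sets of Clcn4 and Clic4 under each processing alternative, with its SE; filled points have an adjusted p under 0.05. Clcn4 stays between 0.43 and 0.75 and loses its call in 2 fits, whereas 1388759_at of Clic4 keeps it in 16 of 33 and turns to 0.08 in the mean of its gene's probe sets.

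Among the other listed genes of chloride transport and of endosomes and lysosomes, 1 was called, Lrrc8a. Over the 6836 genes taken at their brightest tested probe set, 2.57% were called and the median difference was -0.03. Of the other CLC and CLIC genes 4 of 8 were on the array and only Clic1 was above the dim cutoff, with -0.13 (adjusted p = 0.249). Neither Mlc1 (-0.07) nor Gpr37l1 (-0.07), astrocyte proteins linked to Clcn2 function, passed. Of 7 tested cation-chloride cotransporter genes and kinases 0 were called, with a median of -0.04. Among them were the potassium-chloride cotransporter Slc12a5 (11.1 in both groups, difference -0.0038), which keeps neuronal chloride low, Slc12a9 (-0.22, adjusted p = 0.180), and the kinases Wnk1 (-0.02) and Wnk2 (-0.14, adjusted p = 0.103). At their dimmer tested probe sets Wnk1 had 0.16 (adjusted p = 0.310) and Wnk2 -0.11 (adjusted p = 0.654).

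Of 6 tested genes for other chloride channels 1 was called. Lrrc8a, the obligatory subunit of the volume-regulated anion channel, fell by 0.24 at its brighter probe set (8.80 ± 0.13 in control and 8.55 ± 0.09 in learning rats, SD, n = 7 each, adjusted p = 0.0381) and had 0.04 at its dimmer one. The list's median was -0.06, and Ttyh1 (0.31, adjusted p = 0.183), Ano6 (-0.21) and Ttyh3 (-0.05) did not pass. Of the vesicular transporters, whose filling of vesicles depends on chloride, Slc17a7 had 0.14 (adjusted p = 0.178) and Slc32a1 -0.18 (adjusted p = 0.328). The dimmer tested probe set of Slc17a7 had 0.42 (adjusted p = 0.148). Of 14 tested genes for endosome and lysosome membrane proteins and hydrolases 0 were called, 5 lay above 0 and 9 below, and the median was -0.04. The lowest p-values were those of Cd63 (-0.19, adjusted p = 0.101) and Scarb2 (0.37, adjusted p = 0.136), and the brightest were Ctsb (-0.03) and Psap (-0.03).

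**Figure D5:**
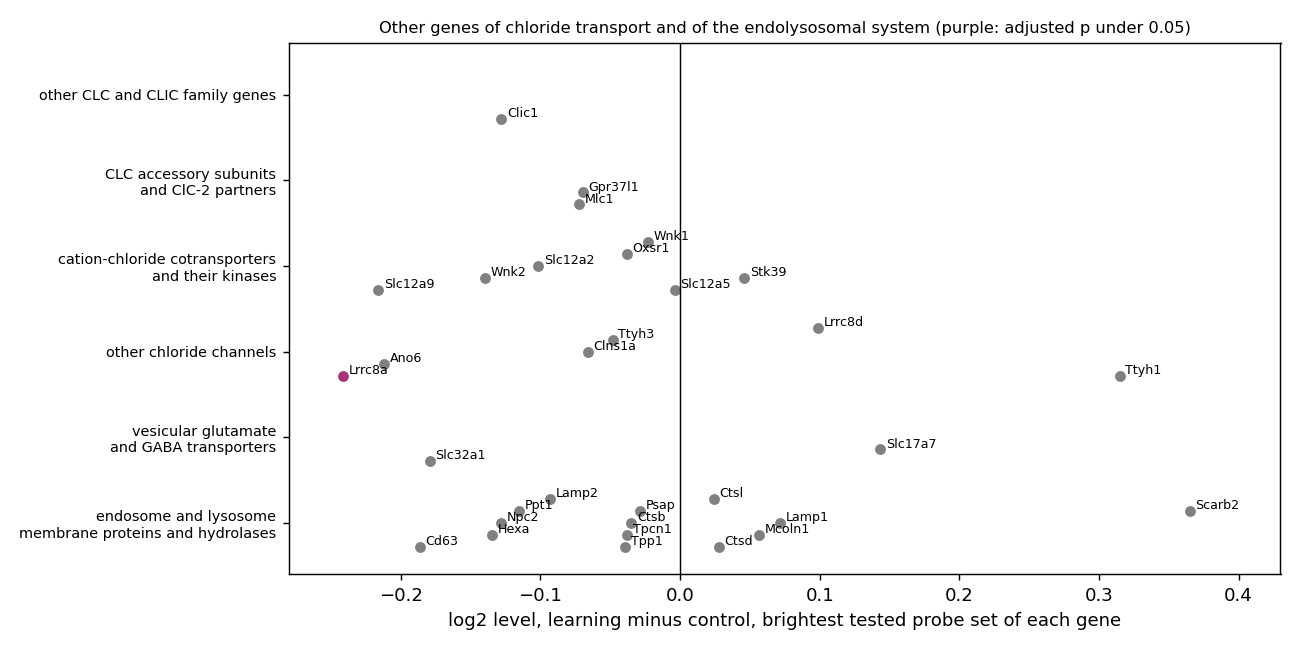
Difference between learning and control rats for the other chloride transport genes and for endosome and lysosome genes, each at its brightest tested probe set, by list; purple marks an adjusted p under 0.05. Only Lrrc8a, at -0.24, is purple, and the points run from -0.24 to 0.37.

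Once the group means were taken out, the genes whose levels followed each member most closely over the 14 arrays were as follows, taken as the highest correlations among all tested probe sets with 1 gene. Clcn4 was followed by Rala, a small GTPase (Pearson r = 0.96), Hpcal4 (0.87) and Anp32a (0.86). For Clic4 at 1388759_at they were Zfp664 (0.87), Rnf130 (0.86) and the actin capping subunit Capza1 (0.84). Clcn7 was most like Grk6 (0.85) and the myelin genes Mobp (0.84) and Mbp (0.83). Mobp and Mbp entered here at a dimmer probe set, not at their brightest. Those dimmer probe sets had control SDs of 0.43 and 0.23, against 0.18 and 0.07 at the brightest of each gene. The correlation of Clcn7 with the mean of the oligodendrocyte markers was not tested. Clcn2 was most like Afdn (0.94), Nfia (0.91) and Pnpla2 (0.91), Clcn3 like Ufm1 (0.84), Lhfpl2 (0.84) and Prmt3 (0.83), and Clcn6 like Eprs1 (0.86), Rev3l (0.84) and Tstd3 (0.82). Learning rat 7 stood apart for Clcn2, at 6.06 with the next learning rat at 5.52. The Clcn2 correlations were not repeated without that rat. These values are descriptions, since each is the highest of all tested probe sets and all points of an array share its RNA and its hybridization.

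Between the members themselves the deviations were compared in the same way. Clcn4 correlated at 0.69 with 1380547_at of Clcn3 and at 0.05 with 1389652_at of the same gene. The 3 probe sets of Clcn3 correlated with each other at 0.21 to 0.64, and those of Clic4 at 0.26 to 0.79. The Clic4 value of 0.79, between 1373678_at and 1387420_at, was 0.50 without control rat 5, and the Clcn3 value of 0.64, between 1392453_at and 1380547_at, was 0.84. The residual SD was 0.16 for Clcn4, 0.07 for 1389652_at of Clcn3, 0.09 for Clcn6 and 0.59 for 1387420_at of Clic4, against a median of 0.11 over all tested probe sets. All tested members except Clcn6 and that Clcn3 probe set lay above this median.

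Control array 5 stood apart, with a mean correlation of 0.990 to the other control arrays where every other array had 0.993 or 0.994 with its own group. It also had the highest ratios between 3' and 5' probe sets of all arrays, at 2.57 for hexokinase, 1.65 for beta-actin and 0.64 for Gapdh. The next highest arrays had 1.61, 1.48 and 0.52. Its probe set balance, -3.65, was the lowest. Without control array 5 Clcn4 had 0.64 and 1388759_at of Clic4 had -0.31, both called. The Gapdh ratio was 0.51 ± 0.06 in control and 0.45 ± 0.05 in learning arrays (exact permutation p = 0.0443, adjusted p = 0.111), and spike-in controls were 0.20 brighter in learning arrays (exact permutation p = 0.00524, adjusted p = 0.0197). With the spike-in level as covariate Clcn4 had 0.75 and stayed called, and 1388759_at of Clic4 had -0.32 (adjusted p = 0.0910).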

How the data were processed

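The table that the authors deposited holds log2 levels of 15923 probe sets in 14 arrays, made with GCRMA per the submitters' processing notes. The log2 scale follows from the range of the values, and the version of GCRMA is not given in the sources. GCRMA compresses differences near background. Genes came from the platform annotation, with symbols updated through Entrez IDs to RefSeq of GRCr8 (12748 of 12783 single-gene probe sets matched). Since no build is named for the array, gene coordinates are not given; promoter windows are those of the RefSeq table, which held all 7 genes, and motifs were chosen with those windows in view. The 57 control and 6346 dim probe sets, with means below the 40th percentile (3.88), were left out. limma 3.58.1 in R 4.3.3 (lmFit, eBayes, no covariate) was fitted to the other 9520 with Benjamini-Hochberg adjustment. Single values per array were compared by two-sided exact permutation. The procedure was tested on simulated data. The number of arrays limits the precision.

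The members and lists were chosen with earlier results of these data known. Named were every member probe set, from each list the called genes, the 2 of lowest p and the 2 brightest, and per member the 3 most correlated genes. Of the marker lists described, the 2 brightest genes were to be named, and the other genes were added after their values were seen. Alternatives were 3 other dim filters, quantile normalization, median centring, array weights, trended or robust moderation, a block for the replicate number, 4 covariates, each array left out, and the mean of a gene's probe sets. Actin, balance, choroid plexus and endothelial covariates and a fit on brightest probe sets were added after seeing the data. Proteins were not compared.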

Additional observations from a re-analysis of the deposited data

Results flagged for a closer look

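In 3 of 20 groups of 7 rats tested, 1 array stood far from the others at a member probe set, where chance flags about 1 in 20. Clic4 at 1387420_at was 3.73 in control rat 5, below the dim cutoff, with the next control rat at 5.69. Clcn2 was 6.06 in learning rat 7, with the next at 5.52. Clcn3 at 1392453_at was 9.83 in control rat 2, with the next at 10.01.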

How the results depend on the processing

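The Clcn4 difference kept its direction in all 32 alternatives and its call in 30, with values of 0.43 to 0.75. The count of members called higher was 1, and 0 with the probe set balance (Clcn4 0.43) or the choroid plexus markers (0.54) as covariate. Without 1 array it ran from 1 to 1 and the Clcn4 value from 0.64 to 0.71. The count called lower was 1, ran from 0 to 1 without 1 array (Clic4 1388759_at -0.35 to -0.26), and was 0 in these other fits, given with the difference of 1388759_at: no filter (-0.30), Gapdh ratio (-0.27), hexokinase ratio (-0.31), spike-in level (-0.32), probe set balance (-0.29), choroid plexus markers (-0.28) and endothelial markers (-0.19). The replicate number as a block gave a count of 0 and the same -0.30 (adjusted p = 0.0740). Same-numbered arrays correlated at -0.16 to 0.13 after removing group means, and 3 of 14 arrays correlated best with their own number. These values cannot show whether rats of the same number were handled together. The mean of the probe sets of Clic4 was 0.0762 and that of Clcn3 0.0173, the reverse of 1388759_at and 1392453_at.

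Of values that were never called, these reversed. With the probe set balance Clcn2 had -0.0337, Clcn3 at 1380547_at -0.15, Clcn7 -0.25, and Clic4 -0.11 at 1373678_at and -0.69 at 1387420_at. With the Gapdh ratio Clcn3 at 1380547_at had -0.0307 and Clic4 at 1387420_at -0.0734. Clcn7 had -0.0142 with the hexokinase ratio and -0.15 with choroid plexus markers, where Clcn6 had 0.0253. Without 1 array Clcn2 ran from -0.0661 to 0.0784 and Clcn3 at 1389652_at from -0.00496 to 0.0433. The cause was not tested.

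Array-wide, 319 probe sets were called. The count was 163 to 352 without 1 array, 132 with 1 probe set per gene, 158 without a filter, 39 with the Gapdh ratio, 177 with the hexokinase ratio, 143 with spike-ins, 163 with dentate markers, 24 with endothelial markers and 0 with the balance or choroid plexus markers. Signal near background limits Clcn5 and Clcn7.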
